A study of Bos taurus with 27 samples.

Results

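The genes described here are those of the cytosolic ribosomal proteins, the proteins of the large (RPL) and small (RPS) subunit of the ribosome outside the mitochondrion. A gene was taken as a member when its symbol was RPL or RPS followed by a number with at most 1 further letter, or RPSA, RPLP0, RPLP1 or RPLP2, and S6 kinases and mitochondrial ribosomal proteins were left out. Of the 24616 genes counted, 57 were members, 33 of the large and 24 of the small subunit. All 57 members passed the filter on low counts, a normalised read count of 1 CPM (counts scaled to the library total) or more in at least 5 of the 9 calves of every treatment, which left 13943 genes tested.

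Symbols came only from the study's core gene list, which holds genes detected in every calf, and from its module lists. The module lists give the genes of some modules of a co-expression network analysis, built on these same calves. Of the core gene list only the most highly expressed part was used here, and the lowest mean in that part was 65.3 CPM. Together these pair 4046 of the identifiers with a name. Of the members, 49 were in the part of the core gene list used and 8 only in a module list, so most are well expressed. Of the 13 members in a module list, 7 were in the Red and 6 in the Grey module. The bovine RefSeq annotation holds 80 protein-coding symbols that fit the rule, and 23 of them, RPS6, RPL5 and RPS19 among others, were not among the names used here and were not analysed. The core gene list goes further down than the part used, so these genes may be named there. No symbol was carried by more than 1 member.

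RNA was sequenced from the colon of 27 male Holstein calves at 51 h of age. All calves were taken from the dam at birth and given pooled pasteurized colostrum as their first meal. TRT0 calves received it at 0 h, TRT6 calves at 6 h and TRT12 calves at 12 h after birth, 9 calves each, and all received milk replacer afterwards. In each treatment 4 calves were born to primiparous heifers (H) and 5 to multiparous cows (C), and this parity came from the study's sample sheet and not from the labels of the samples. No calf was left without colostrum, so TRT0 is the reference and not an unfed control. Totals lay between 1163791 and 4202593 gene counts per calf, and 3 sequencing lanes held 11, 11 and 5 calves. The lanes were read from codes in the names of the read files given with the samples, which do not use the word. The code of lane 3 also begins with another number than those of lanes 1 and 2, so it may be another run. Lane 1 held no TRT0_C calf, and lane 3 held no TRT0_H, TRT6_H or TRT12_C calf. Epithelial markers (EPCAM, VIL1, CDH1, KRT8 and KRT18) summed to between 1322 and 2302 CPM in every calf. Smooth muscle markers (ACTA2, DES, MYH11 and others) summed to between 6554 and 13665 CPM, so the segments held mucosa and muscle. Markers of T cells, B cells and red cells had no symbol paired with them.

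The ribosome translates messenger RNA. Its small subunit decodes the message and its large subunit joins the amino acids, and each ribosome carries a single copy of nearly every protein, so that cells make these proteins in matched amounts. Their messengers begin with a terminal oligopyrimidine (TOP) tract, through which mTOR and the RNA-binding protein LARP1 set how much of them is translated. The intestinal epithelium renews itself quickly and is a site of heavy protein synthesis after birth.

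The members together took about the same part of the RNA in every group. They held between 0.919% and 1.42% of all gene counts of a calf, with a median of 1.17% over the 27 calves. The share was 0.978% to 1.33% in TRT0 (median 1.18%), 0.919% to 1.37% in TRT6 (median 1.16%) and 1.06% to 1.42% in TRT12 (median 1.17%). The ranges of the 3 treatments lay over each other, and so did those of H calves (0.978% to 1.405%) and C calves (0.919% to 1.42%).

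The lowest and the highest share were both in C calves, a TRT6_C calf of lane 1 and a TRT12_C calf of lane 2. Lanes 1, 2 and 3 had medians of 1.16%, 1.203% and 1.15%. The 10 genes with the most counts, COX1, CYTB, RN7SL1 and COL3A1 among them, took between 30.6% and 43.1% of the counts of a calf. With these left out, the members' share had a median of 1.93% and ran from 1.59% to 2.21%. In pieces of tissue, fewer cells of a type and less RNA per cell cannot be told apart, and this holds for every level given here.

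**Figure D1:**
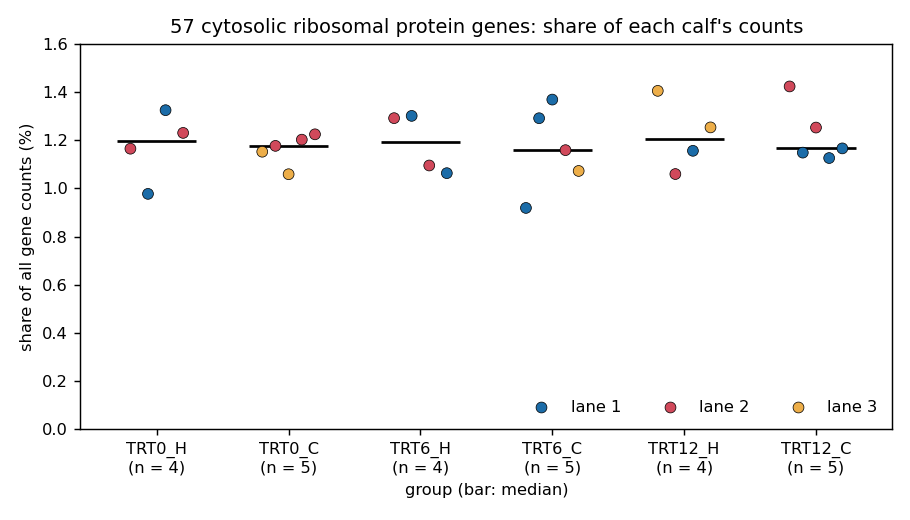
Share of each calf's gene counts (%, y axis) held by the 57 members in the 6 groups of treatment and parity (x axis), with points coloured by sequencing lane and bars at the group medians. All 27 calves lie between 0.919% and 1.42%, and the ranges of the groups lie over each other.

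The balance of the subunits varied little from calf to calf. Counts of the 33 large subunit genes divided by those of the 24 small subunit genes came to between 1.06 and 1.16 in every calf, with a median of 1.10. By treatment its median was 1.09 (TRT0), 1.10 (TRT6) and 1.09 (TRT12).

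Delayed colostrum was the question of the study, and no member passed its thresholds in any of the 13 contrasts between treatments or parities. These were an adjusted p of 0.10 or less and a fold change of 1.2 or more, with edgeR's quasi-likelihood test and Benjamini-Hochberg adjustment over all 13943 genes tested. By this test the background was 0% called in every contrast, so the count of 0 members is the same as for all other genes. The study, with edgeR, called RGS2 in TRT6_H vs. TRT0_H, TRT12_C vs. TRT0_C and TRT0_C vs. TRT0_H. It also called CCL14 in TRT6_C vs. TRT6_H. The test used here did not give these calls. edgeR's likelihood ratio test called 2 genes in TRT12_C vs. TRT0_C and 1 in each of the other contrasts just named. It also called 2 genes in C vs. H and 1 in TRT6_C vs. TRT0_C, and which genes these were is not given here. The test of whether the treatment difference varied with parity called 0 members, beside 0.00717% of all genes, which is 1 gene. DESeq2 also called 0 members in each of the 13 contrasts, beside at most 4 of all genes in a contrast, TRT12_C vs. TRT0_C.

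At an unadjusted p under 0.05 the members were also few. In TRT6 vs. TRT0, 0 of 57 members had such a p, beside 3.13% of all genes. In TRT12 vs. TRT0 there was 1 member, RPL28, beside 9.37% of all genes. Counts of 0 members stood beside 3.14% in TRT12 vs. TRT6, 2.52% in C vs. H and 2.67% in the test of a varying treatment difference.

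Within parity, the contrast TRT12_C vs. TRT0_C had 4 members at this level, all with a higher level in TRT12_C, beside 9.86% of all genes in either direction and 5.03% higher. The share of members, 7.02%, was near that background. Each of the other 8 contrasts had 0 members. DESeq2 gave the same 1 and 4 members at this level. Their backgrounds were 3.35% (TRT6_H vs. TRT0_H), 3.56% (TRT12_H vs. TRT0_H), 1.8% (TRT12_H vs. TRT6_H), 1.95% (TRT6_C vs. TRT0_C), 6.71% (TRT12_C vs. TRT6_C), 2.52% (TRT0_C vs. TRT0_H), 3.86% (TRT6_C vs. TRT6_H) and 2.68% (TRT12_C vs. TRT12_H). The lowest adjusted p of any member in any contrast was 0.473, from edgeR's quasi-likelihood test.

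The data bound the size of the differences. In TRT12 vs. TRT0, the 95% interval of the fold change lay within 1.5-fold in either direction for 54 of 57 members and within 1.2-fold for 8. For TRT6 vs. TRT0 the same counts were 54 and 20, for TRT12 vs. TRT6 54 and 18, and for C vs. H 55 and 36. The standard error of a member's log2 fold change had a median of 0.11 in TRT12 vs. TRT0, against 0.17 over all genes tested.

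The fitted differences of the members were small and leaned one way together. In TRT12 vs. TRT0 their median log2 fold change was 0.08, and 52 of 57 lay above 0, beside 49.3% of all genes. In TRT12 vs. TRT6 the median was 0.07 with 48 above 0, beside 49.5% of all genes. In TRT6 vs. TRT0 the median was 0.03 with 38 above 0, beside 51.7%. With 1 calf left out the medians ran from 0.06 to 0.12 in TRT12 vs. TRT0, from 0.03 (without TRT6 replicate 4) to 0.11 (without TRT6 replicate 5) in TRT12 vs. TRT6, and from -0.02 (without TRT6 replicate 5) to 0.05 (without TRT6 replicate 4) in TRT6 vs. TRT0. These contrasts share calves, and the members vary together over the calves of a group, so the counts do not stand for 57 separate genes.

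In C vs. H the lean was the other way, with a median of -0.06 and 6 of 57 above 0, beside 48.9% of all genes. The median was -0.10 in both TRT0_C vs. TRT0_H and TRT6_C vs. TRT6_H, with 13 and 5 members above 0 (49.4% and 51% of all genes). In TRT12_C vs. TRT12_H the median was 0.01, with 32 above 0, beside 48.3%. Single calves moved these medians. That of TRT0_C vs. TRT0_H ran from -0.15 without TRT0 replicate 5 to -0.03 without TRT0 replicate 6. That of TRT6_C vs. TRT6_H ran from -0.18 without TRT6 replicate 5 to -0.04 without TRT6 replicate 1, and that of TRT12_C vs. TRT12_H from -0.08 without TRT12 replicate 3 to 0.09 without TRT12 replicate 7. For C vs. H the range was -0.09 without TRT12 replicate 3 to -0.03 without TRT6 replicate 4. The test of a varying treatment difference called 0 members.

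In C calves the medians of TRT12_C vs. TRT0_C and TRT12_C vs. TRT6_C were 0.11 and 0.12, with 50 and 53 of 57 members above 0 (49.3% and 48.3% of all genes). In H calves the median was 0.03 for both TRT6_H vs. TRT0_H and TRT12_H vs. TRT0_H, with 37 and 36 members above 0 (50.4% and 50.6% of all genes), and -0.00 for TRT12_H vs. TRT6_H, with 25 above 0 (50.7%). TRT6_C vs. TRT0_C had 0.01 and 31 above 0, beside 52.4%. With 1 calf left out, each of these 4 medians passed to the other side of 0. That of TRT6_H vs. TRT0_H was -0.03 without TRT6 replicate 1 and 0.10 without TRT6 replicate 3, and that of TRT12_H vs. TRT0_H was -0.03 without TRT12 replicate 1 and 0.13 without TRT12 replicate 3. The median of TRT12_H vs. TRT6_H ran from -0.07 to 0.08 and that of TRT6_C vs. TRT0_C from -0.07 to 0.07. Those of TRT12_C vs. TRT0_C (0.07 without TRT12 replicate 2 to 0.19 without TRT12 replicate 7) and TRT12_C vs. TRT6_C (0.06 without TRT6 replicate 4 to 0.19 without TRT6 replicate 5) stayed above 0. With the lane in the fit the medians of TRT12_H vs. TRT0_H and TRT12_H vs. TRT6_H were -0.04 and -0.05, with 17 and 14 members above 0. In that fit TRT12_C vs. TRT12_H had a median of 0.08 with 43 above 0. It gave -0.14 in both TRT0_C vs. TRT0_H and TRT6_C vs. TRT6_H. In TRT12_C vs. TRT0_C and TRT12_C vs. TRT6_C it gave 0.15 and 0.14. Without the lane, both subunits gave like values: in TRT12_C vs. TRT0_C the median was 0.12 for the large and 0.11 for the small subunit. The scale of the libraries moved these medians. With library totals in place of TMM factors (a scaling that assumes most genes do not differ), C vs. H had a median of -0.01 with 25 members above 0, while the median of all genes was 0.05. On that scale the median was 0.05 in TRT12 vs. TRT0 with 49 above 0, and 0.03 in TRT12_C vs. TRT0_C with 38 above 0, against -0.03 and -0.08 for all genes. It passed to the other side of 0 in TRT6 vs. TRT0 (-0.00), TRT6_C vs. TRT0_C (-0.03), TRT12_C vs. TRT12_H (-0.01) and TRT12_H vs. TRT6_H (0.05). The medians of all genes in these contrasts were -0.02, -0.02, -0.02 and 0.05 on that scale.

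**Figure D2:**
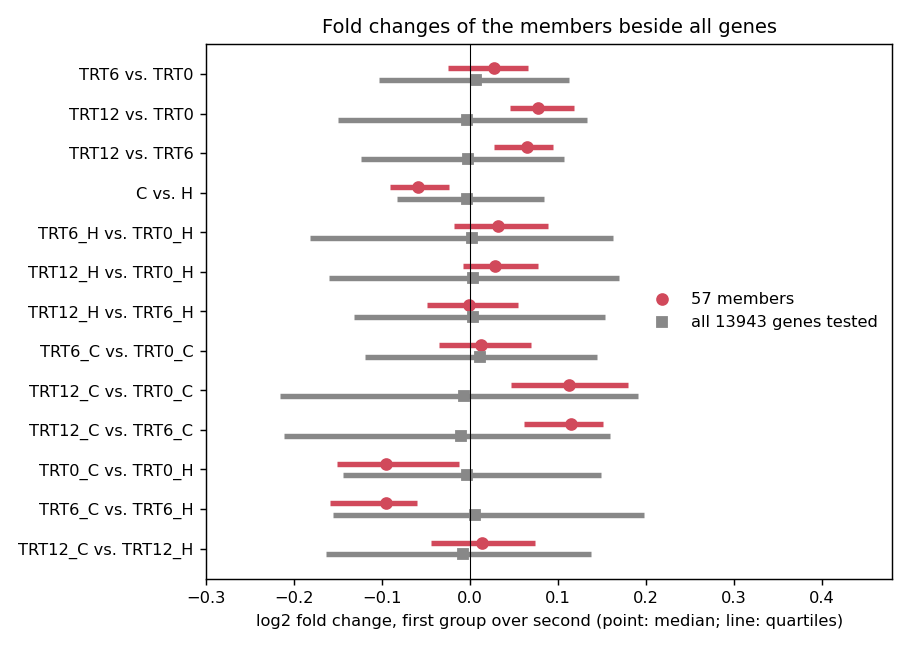
Log2 fold changes (x axis) in the 13 contrasts (y axis), with the median and quartiles of the 57 members in red and of all 13943 genes tested in grey. The members' medians run from -0.10 to 0.12 and their quartiles are narrower than those of all genes.

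The ribosomal stalk is a flexible arm of the large subunit that draws in elongation factors; RPLP0 is its base and RPLP1 and RPLP2 bind to it as dimers. Levels are given in CPM over library totals, while log2 fold changes come from the fit with TMM factors. RPLP0 had 605 to 945 CPM in TRT0 (median 795), 685 to 988 in TRT6 (median 802) and 747 to 969.7 in TRT12 (median 829.9). The groups overlapped over most of their range. The fold change was 1.09 (95% interval 0.933 to 1.27) for TRT6 vs. TRT0 and 1.09 (0.929 to 1.27) for TRT12 vs. TRT0, with an adjusted p of 0.788 in the latter by edgeR's quasi-likelihood test.

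RPLP2 spread most among the members with many counts. It ran from 76.3 to 199 CPM in TRT0 (median 136), from 81.9 to 214 in TRT6 (median 175) and from 99.7 to 246 in TRT12 (median 165). Its log2 fold change in TRT12 vs. TRT0 was 0.28 ± 0.20 (SE), with an adjusted p of 0.699 by edgeR's quasi-likelihood test. RPLP1 had medians of 248, 228 and 223 CPM in TRT0, TRT6 and TRT12, and a log2 fold change of 0.12 ± 0.13 (SE) in TRT12 vs. TRT0.

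RPL28, a protein of the large subunit, had the lowest p of the members in both TRT12 vs. TRT0 and TRT12_C vs. TRT0_C. In the TRT0_C calves it had 112, 165, 114, 167 and 159.7 CPM, and in the TRT12_C calves 212, 153, 176, 167 and 178 CPM. The 2 lowest values belonged to the TRT0_C calves sequenced in lane 3, which held no TRT12_C calf, and the groups overlapped between 153 and 167 CPM.

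The log2 fold change of RPL28 was 0.39 ± 0.17 (SE) in TRT12_C vs. TRT0_C, with an adjusted p of 0.473 by edgeR's quasi-likelihood test. With the lane in the fit it was 0.39, with an unadjusted p of 0.0456 by edgeR's quasi-likelihood test, against 0.0245 without the lane. In lane 2, the only lane with calves of both groups, the 3 TRT0_C calves had 165, 167 and 159.7 CPM. The 2 TRT12_C calves of lane 2 had 212 and 176 CPM, and the 3 of lane 1 had 153, 167 and 178 CPM. The part of the lane in this difference was not tested. Leaving out any of 2 calves took the unadjusted p of RPL28 to 0.05 or more, and without the TRT0_C calf of lane 3 at 112 CPM the log2 fold change was 0.33. Over all calves, TRT12 vs. TRT0 gave 0.26 ± 0.12 (SE) with an adjusted p of 0.509 by the same test. Leaving out any of 10 calves took the unadjusted p to 0.05 or more. RPL28 spanned 93.2 to 199 CPM in TRT0 and 133 to 212 CPM in TRT12.

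RPL29, a large subunit protein that also binds heparin, had 127, 156, 124, 164 and 164 CPM in TRT0_C and 209, 155, 173, 161 and 175 CPM in TRT12_C. Its log2 fold change was 0.33 ± 0.15 (SE), with an adjusted p of 0.487 by edgeR's quasi-likelihood test. With the lane in the fit its unadjusted p was over 0.05. The groups overlapped between 155 and 164 CPM.

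RPLP2 was also at this level, with a log2 fold change of 0.54 ± 0.26 (SE) and an adjusted p of 0.505 by edgeR's quasi-likelihood test. Its values were 94.6, 141, 90.7, 192 and 110.4 CPM in TRT0_C and 246, 99.7, 184, 176 and 163 CPM in TRT12_C. Leaving out any of 16 calves took its p to 0.05 or more, and without the highest TRT12_C calf the log2 fold change was 0.40. For RPL29, 6 calves had this effect. With library totals in place of TMM factors, none of the 4 members had an unadjusted p under 0.05. The only member under it was then RPS3A, lower in TRT12_C with a log2 fold change of -0.32 and an adjusted p of 0.527 by edgeR's quasi-likelihood test, and it was named after its values were seen.

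**Figure D3:**
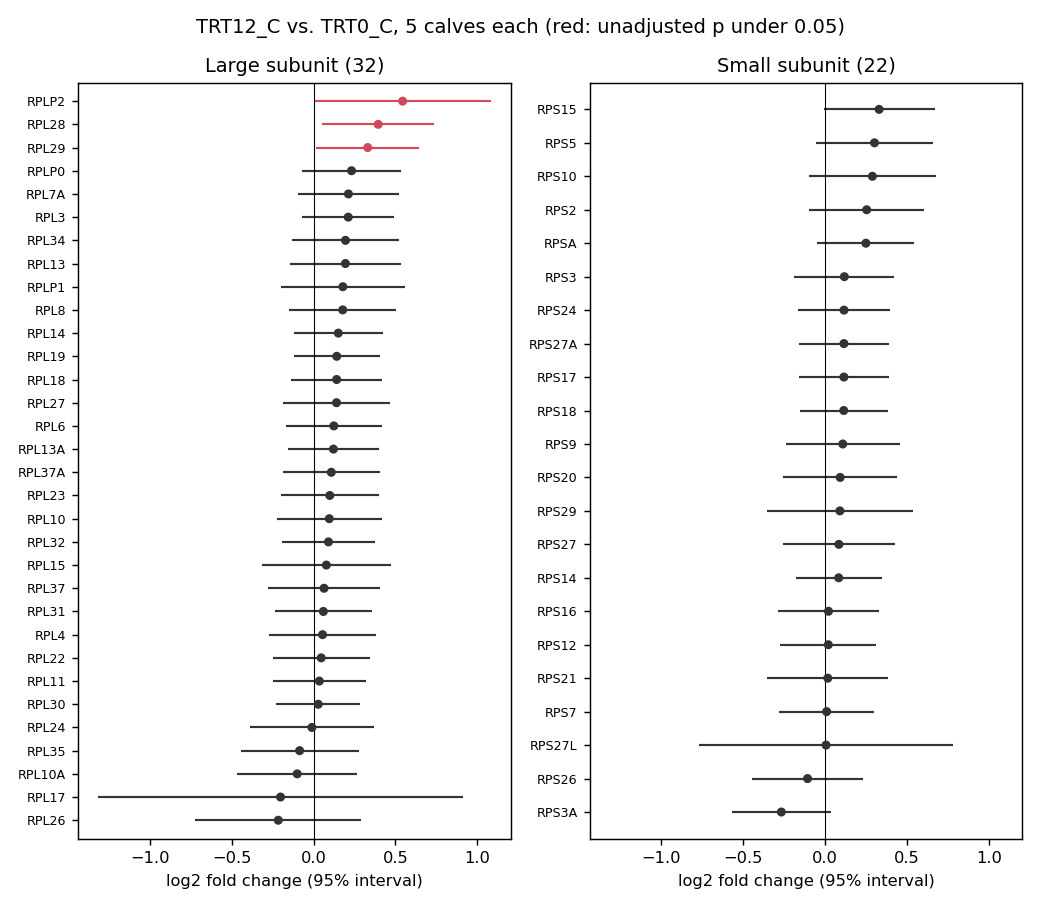
Log2 fold change with its 95% interval (x axis) for 54 of the 57 members in TRT12_C vs. TRT0_C, 5 calves each, with large subunit genes on the left and small subunit genes on the right, each ordered by value. RPLP2, RPL28 and RPL29, in red, have intervals that end just above 0, and the other 51 intervals hold 0.

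Several other large subunit members had the lowest p of the members in a contrast. RPL30, which also binds selenoprotein messengers, had a log2 fold change of -0.15 ± 0.07 (SE) in C vs. H, or a fold change of 0.903. Its TRT0 calves lay between 91.5 and 116.1 CPM, its TRT6 calves between 76.5 and 120.03 and its TRT12 calves between 90.2 and 135. RPL26 had medians of 14.6, 15.43 and 12.9 CPM in TRT0, TRT6 and TRT12 and a log2 fold change of -0.30 ± 0.18 (SE) in TRT12 vs. TRT6.

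RPL35, which sits by the exit of the nascent chain, had medians of 28.4, 26.6 and 30.8 CPM and a log2 fold change of 0.33 ± 0.19 (SE) in TRT12_H vs. TRT0_H. RPL6 had medians of 53.3, 51.2 and 56.4 CPM and 0.25 ± 0.14 (SE) in TRT12_C vs. TRT6_C. RPL11, which with RPL5 binds MDM2 when ribosome assembly is disturbed, had medians of 227, 233 and 227 CPM. Its lowest p, in TRT6_C vs. TRT6_H, went with a log2 fold change of -0.21 ± 0.15 (SE). All of these intervals held 0.

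RPSA and RPS2 were among the small subunit members with the most counts. RPSA, known also as a laminin receptor, had 481 to 698 CPM in TRT0 (median 602), 485 to 711 in TRT6 (median 606) and 523 to 746 in TRT12 (median 622). Its fold change was 1.10 (95% interval 0.950 to 1.28) in TRT6 vs. TRT0 and 1.11 (0.955 to 1.29) in TRT12 vs. TRT0.

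RPS2, a protein at the entry of the messenger channel, had medians of 499, 444 and 471 CPM in TRT0, TRT6 and TRT12. Its fold change in TRT12 vs. TRT0 was 1.09 (95% interval 0.909 to 1.30), and its TRT0 calves spread from 304 to 583 CPM.

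RPS27A, made as a fusion with ubiquitin, was among the members that varied least. Its coefficient of variation (CV) over the 27 calves was 9.52%, with medians of 224, 226 and 227 CPM in TRT0, TRT6 and TRT12. RPS26, which contacts the messenger near its exit, had a log2 fold change of -0.28 ± 0.17 (SE) in TRT12_C vs. TRT12_H, its lowest p among the contrasts. Levels in CPM are not divided by the length of the transcript, so members are not compared with each other by level.

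RPS27L is a paralogue of RPS27. RPS27 had 68.9 to 117 CPM over the calves, and RPS27L between 4 and 34 counts, or 1.65 to 9.02 CPM. The medians of RPS27L were 6.06, 6.28 and 6.85 CPM in TRT0, TRT6 and TRT12 and those of RPS27 were 81.3, 74.0 and 89.5 CPM. In TRT12 vs. TRT0, RPS27L had a log2 fold change of 0.27 ± 0.26 (SE) and RPS27 of 0.09 ± 0.12 (SE).

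RPL17, next to the exit tunnel, was the only member under 1 CPM in any calf. It had between 0 and 12 counts, and the calf at 0 was in TRT0_C. Its fold change in TRT12 vs. TRT0 was 0.957 with an interval of 0.552 to 1.66. Ribosomal protein genes have many processed copies in mammalian genomes, and reads assigned to more than 1 gene were not counted, so a member with close copies may have lost reads and its level is uncertain.

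Members varied less between calves than most genes. Their CV had a median of 14.3%, against 27.1% for all genes tested. For comparison, 1875 other genes with a mean CPM at or above that of the lowest member in the part of the core gene list used had a median of 16.402%. RPL17 (58.1%), RPS27L (33.1%) and RPLP2 (31.5%) varied most. Counting error alone gives 42.6% for RPL17 and 29.4% for RPS27L, but 5.77% for RPLP2.

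The members varied together from calf to calf. Levels on the log2 CPM scale were centred within the 6 groups, so that no difference between groups enters, and each member was compared with the mean of the other 56. The correlation r had a median of 0.770 over the members and was above 0.5 for 51 of 57. Of all other genes tested, 7.32% had an r above 0.5 with the members' mean. Of the 1875 other genes at or above the lowest member in the part of the core gene list used, 20.5% had one. These genes were not matched to the members by counts, and 8 members lay below that level. These correlations are descriptions over 27 calves whose values come from the same libraries, and share their scaling.

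RPL7A, RPS18 and RPL11 followed the others most closely, with r of 0.943, 0.927 and 0.903. RPL17 (-0.249), RPS27L (0.284) and RPLP2 (0.372) did so least, and the first 2 have few counts. Pairs within the large subunit had a median r of 0.558, pairs within the small subunit 0.588 and pairs between the subunits 0.596. Centred within lanes instead of groups, the median r was 0.782, and with library totals in place of TMM factors it was 0.734.

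**Figure D4:**
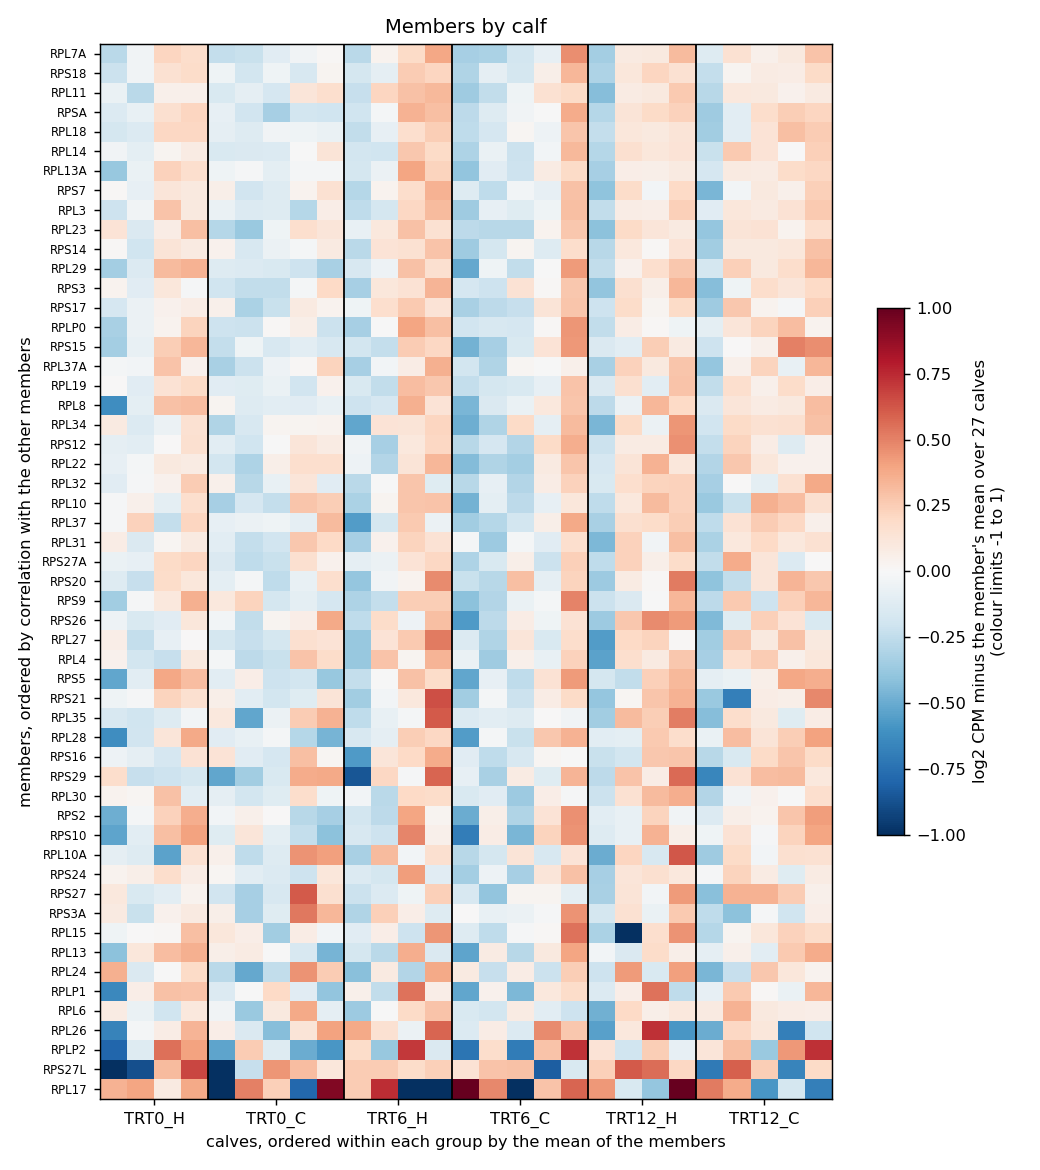
Log2 CPM of 54 of the 57 members (rows, ordered by correlation with the other members) minus their own means, in each calf (columns, by group and within group by the mean of the members), with colours limited to -1 and 1. Most rows change colour together from calf to calf, RPS27L and RPL17 at the bottom do not, and every group holds calves of both colours.

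The calves that stood high or low were spread over the groups. The mean log2 CPM of the members ran from 7.02 to 7.37 in TRT0, from 6.92 to 7.45 in TRT6 and from 6.93 to 7.42 in TRT12. The highest and the lowest calf were both in TRT6_C, and both came from lane 1. The SD within groups was 0.18, against a largest median log2 fold change of the members of 0.12 in any contrast. The mean went with a lower TMM factor (r = -0.508) and had an r of -0.231 with the total count, both on the log2 scale over the 27 calves. The part of the scaling in it was not tested.

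Within the members, 6 genes varied most closely with each other: RPLP1 and RPLP2 of the stalk, RPL13 and RPL28 of the large and RPS2 and RPS10 of the small subunit. They were picked after their correlations were seen, and RPL13 and RPS10 are named for that reason alone. The median r of their 15 pairs was 0.892, the highest RPS2 with RPS10 at 0.974 and RPL13 with RPS2 at 0.965. With the other 51 members their median r was 0.374. Leaving RPL17 aside, the lowest r of any pair of members was -0.413, between RPLP2 and RPL24.

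The level of these 6 against the other members went with the sequencing lane. Their mean log2 CPM minus that of the other 51 had medians of 0.52 in lane 1, 0.90 in lane 2 and 0.38 in lane 3. In lane 2 it ran from 0.70 to 1.001, in lane 1 from 0.22 to 0.92 and in lane 3 from 0.15 to 0.85. By treatment the ranges were 0.15 to 0.92 in TRT0, 0.32 to 1.001 in TRT6 and 0.40 to 0.96 in TRT12. Centred within lanes, the 15 pairs had a median r of 0.873, in the same calves from which the 6 genes were picked. The part of the lane in their levels was not tested. RPL28 and RPLP2, named above for TRT12_C vs. TRT0_C, belong to it.

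FAU, a ubiquitin-like protein fused to a small subunit protein and left out by the rule, had an r of 0.551 with the members' mean. Its log2 fold change was -0.07 ± 0.11 (SE) in TRT12 vs. TRT0, and it was not called in any contrast. The paralogues RPL7L1, RPL22L1, RPL26L1, RPS4Y1 and RPS4Y2 had no identifier paired with them.

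The genes nearest to the members' mean over the 27 calves, by r, included several of the translation machinery. Of the 10 nearest, 6 had a gene symbol, 2 a LOC symbol and 2 no symbol. They included RACK1 (0.893), a scaffold on the small subunit, EIF3L (0.867), a subunit of initiation factor eIF3, the histone H4 (0.864), MRFAP1L1 (0.861) and the elongation factor subunit EEF1G (0.849). The first of all, at 0.915, had no symbol. The lowest named genes were KMT2C (-0.879), a histone methyltransferase, and SLC6A7 (-0.847), a proline transporter.

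Of 20 translation factors and other genes with TOP messengers, 16 were named, and all 16 had an r above 0 with a median of 0.612, 11 of them above 0.5. Those with the most counts were EEF2 (r = 0.603), the elongation factor that moves the ribosome, PABPC1 (0.757), the poly(A)-binding protein, and RACK1. None was called. EIF3L was the only one with an unadjusted p under 0.05 in TRT12 vs. TRT0, at a log2 fold change of 0.27 ± 0.10 (SE) and an adjusted p of 0.443 by edgeR's quasi-likelihood test. The median log2 fold change of the 16 was 0.02 in that contrast with 9 above 0, and -0.06 with 2 above 0 in C vs. H. Among the 16, EIF3K, with a mean of 50.3 CPM, was named from the module lists alone.

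Of 25 named mitochondrial ribosomal proteins, which serve the separate ribosome of that organelle, 24 had an r above 0, with a median of 0.426. Their mean levels ran from 4.70 to 33.2 CPM, under the 65.3 CPM of the part of the core gene list used. Their names therefore came only from the module lists, which were built on these same calves and also hold members. The part of that naming in their r was not tested. The 3 with the most counts, MRPL49, MRPL3 and MRPS27, had 0.440, 0.018 and 0.613. In TRT12 vs. TRT0 their median log2 fold change was 0.16, 21 of 25 lay above 0, and 3 had an unadjusted p under 0.05, all higher: MRPL11 (0.42 ± 0.16, SE), MRPS23 (0.33 ± 0.14) and MRPS17 (0.52 ± 0.24). None was called, and 9.37% of all genes were at that level. Of 30 genes of ribosome biogenesis 8 were named, among them NCL (nucleolin), UBTF and SBDS. Their median r was 0.286, with EIF6, which acts in large subunit assembly, highest at 0.595. All 8 lay above 0 in TRT12 vs. TRT0 with a median of 0.10, and 0 had an unadjusted p under 0.05 in any contrast.

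Of 13 genes in a list of mTOR, LARP1 and S6 kinase genes, 5 were named, and their r differed in sign. MTOR had an r of -0.639 with the members' mean, LARP1 -0.291, EIF4EBP2 0.049, LARP4 0.174 and RPS6KA1, an S6 kinase of the RSK family, 0.550. LARP4, with a mean of 37.4 CPM, was named from the module lists alone. RPS6KA1 had log2 fold changes of 0.21 ± 0.10 (SE) in TRT6 vs. TRT0 and 0.31 ± 0.10 (SE) in TRT12 vs. TRT0, with an adjusted p of 0.421 in the latter by edgeR's quasi-likelihood test. MTOR had -0.14 ± 0.09 (SE) in TRT12 vs. TRT0 and -0.26 ± 0.11 (SE) in TRT12_C vs. TRT0_C, with an adjusted p of 0.462 by the same test. LARP4, a poly(A)-binding relative of LARP1, had -0.22 ± 0.09 (SE) in C vs. H and -0.48 ± 0.15 (SE) in TRT6_C vs. TRT6_H, both at an unadjusted p under 0.05. None of the 5 genes was called in any contrast. RPS6KB1, RPS6KB2, RPTOR, RHEB and MYC, also in that list, had no identifier paired with them. Neither MDM2 nor CDKN1A had an identifier paired with it.

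**Figure D5:**
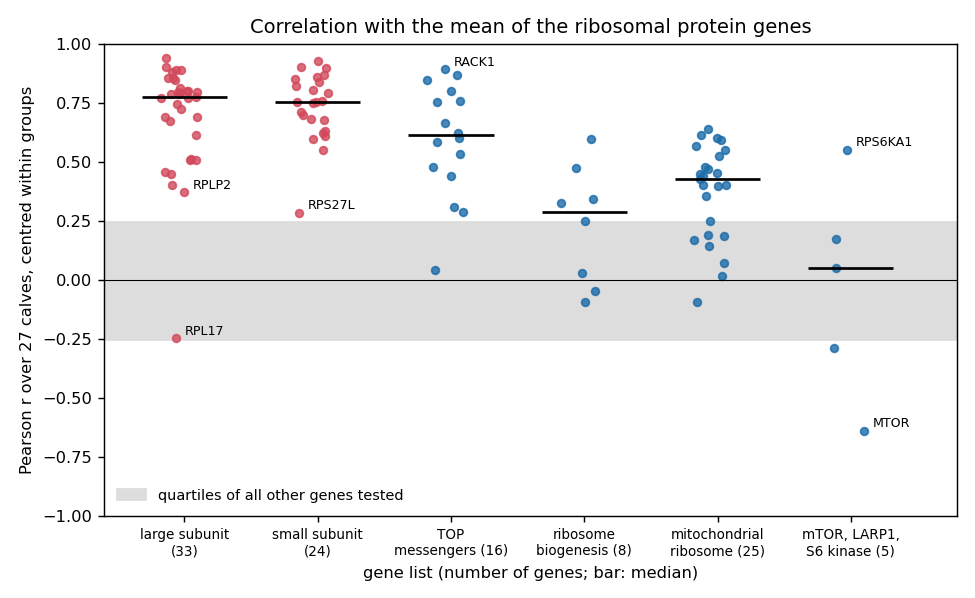
Pearson r over the 27 calves, centred within groups (y axis), of each gene with the members' mean (for members, the mean of the other 56), by gene list (x axis), with bars at the medians and the quartiles of all other genes tested in grey. Both subunits and the TOP messengers lie mostly above 0.5, RPL17 at -0.249, and the mTOR list runs from -0.639 to 0.550.

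Cell type markers gave a further set of values beside the members' mean. Summed levels of PCNA and TOP2A, markers of dividing cells, had an r of 0.681 with it over the 27 calves, and 2 of the 5 markers listed were named. The 5 epithelial markers named of 7 had 0.504, CD74 and PTPRC of leukocytes 0.279, the 6 smooth muscle markers 0.142, the 5 fibroblast markers -0.064 and PECAM1 and VWF of endothelium -0.141. No marker was at 0. The summed level of PCNA and TOP2A was 186 to 251 CPM in TRT0, 169 to 279 in TRT6 and 192 to 306 in TRT12, and that of the epithelial markers 1322 to 1794, 1334 to 1938 and 1426 to 2302. The treatments overlapped in both, and the part of the cell types in the members' levels was not tested.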

How the data were processed

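The authors deposited whole-number counts of reads per Ensembl gene for the colon of each of 27 calves. By the study's methods, reads were filtered for chastity, aligned to UMD 3.1 with TopHat2 2.1.1, sorted with SAMtools 1.4 and counted with HTSeq-count. A read that matched more than 1 gene was not counted. The strand setting is not given in the sources used here, so overlapping and antisense genes are uncertain.

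From the counts, CPM was computed over each calf's total. Log2 CPM used TMM factors and a prior count of 1. Contrasts were tested two-sided with edgeR 4.0.16 (quasi-likelihood test) in R 4.3.3 over all calves: 9 contrasts from a mean for each of 6 groups, and 4 from treatment and parity as additive terms. The fits were tested on simulated data. DESeq2 1.42.0 and other settings were alternatives. Parity came from the study's sample sheet, since the table's column names, which had been planned as its source, do not hold it. Replicates were numbered in accession order.

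Members, gene lists and tests were chosen with earlier results of these data known. Named members are the 5 with the most counts, the lowest p per contrast, RPSA and the stalk, the paralogue pair, and the 3 highest and lowest in CV and in r. From other lists the 3 with the most counts and the 10 nearest by r were to be named, and other genes were named after their values were seen. Results for some genes that this rule picked are not reported here. Totals of 1163791 to 4202593 counts limit the precision for RPL17, RPS27L and RPL26. Figures were drawn with matplotlib 3.10.9.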

Additional observations from a re-analysis of the deposited data

Results flagged for a closer look

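For the share of counts, the subunit ratio and the 22 named members, each calf was compared with the other 8 of its treatment by Dixon's ratio at its 95% critical value. Chance picks out about 1 in 20 groups, and a calf lay apart in 5 of 72 groups here. RPL35 stood at 42.7 CPM in a TRT6 calf, where the others had 25.36 to 33.9, and at 44.1 CPM in a TRT12 calf, where the others had 24.6 to 33.9. That TRT12 calf, which was in lane 3, also had the highest RPL17, at 6.85 CPM against 1.28 to 4.04. RPL26 stood at 23.5 CPM in another TRT12 calf of lane 3, against 8.38 to 15.395. RPS27 stood at 114 CPM in a TRT0 calf of lane 3, against 73.4 to 92.6.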

How the results depend on the processing

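No member was called in any of the 13 contrasts under DESeq2's test, library totals in place of TMM factors, the 10 highest genes left out, no filter, a filter of 1 CPM in all calves, edgeR's likelihood ratio test, the lane in the fit, or, chosen after seeing the data and for the 3 treatment contrasts, no parity term. None was called with any 1 of the 27 calves left out either. Over all genes, these settings called at most 4 in a contrast, by DESeq2 and with the lane, both in TRT12_C vs. TRT0_C. With a calf left out, at most 1 gene was called in a contrast. The counts of 0 members are therefore near the background. The lowest adjusted p of a member was 0.356 over these settings and 0.261 with a calf left out. The members' share of counts was 1.93% without the 10 highest genes, because the total was smaller. At an unadjusted p under 0.05, TRT12_C vs. TRT0_C had 4 members, 1 other member (RPS3A) with library totals, and with a calf left out from 0 (without TRT0 replicate 1) to 6 (without TRT12 replicate 7), with 1 or 2 without TRT12 replicate 2 or 6 or TRT0 replicate 3, 4 or 8. With the lane in the fit, the 4 members of TRT12_C vs. TRT0_C held RPS15, named after its values were seen, and not RPL29. With the filter of 1 CPM in all calves 3 members were left, without RPLP2. At that level TRT12_C vs. TRT6_C had RPS27 and RPL6 with the lane in the fit, against 0 members without it. The share of all genes at that level with the lane in the fit is not given here. The median log2 fold change of the members kept its sign with any calf left out in TRT12 vs. TRT0 (0.06 to 0.12), TRT12 vs. TRT6 (0.03 to 0.11), C vs. H (-0.09 to -0.03), TRT12_C vs. TRT0_C (0.07 to 0.19), TRT12_C vs. TRT6_C (0.06 to 0.19), TRT0_C vs. TRT0_H (-0.15 to -0.03) and TRT6_C vs. TRT6_H (-0.18 to -0.04). It changed sign in the other 6: TRT6 vs. TRT0 (-0.02 to 0.05), TRT6_H vs. TRT0_H (-0.03 to 0.10), TRT12_H vs. TRT0_H (-0.03 to 0.13), TRT12_H vs. TRT6_H (-0.07 to 0.08), TRT6_C vs. TRT0_C (-0.07 to 0.07) and TRT12_C vs. TRT12_H (-0.08 to 0.09). With the 49 members of the core gene list alone, also chosen after seeing the data, the median r was 0.778. Depth and calf number limit what can be seen: with 4 or 5 calves a group, no interval of a member lay within 1.2-fold. No paired analysis was possible because the replicate numbers only follow the accession order.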
